A study of Homo sapiens with 6 samples.

Results

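Box H/ACA small nucleolar RNAs (snoRNAs, gene symbols beginning with SNORA) were followed in MDA-MB-231 cells, an established line of human breast cancer of the triple-negative kind, after exposure to YW3-56. All genes were taken whose single symbol in the platform annotation starts with SNORA and a digit, which gave 61 of the 18417 genes measured. They were read by 64 probe sets, and where a gene had several, the one with the brightest mean of 6 arrays was used. In the vehicle group, 3 arrays held RNA of MDA-MB-231 cells given DMSO, and in the treated group 3 arrays held RNA of the same line given 10 µM YW3-56 for 8 h. The compound inhibits peptidylarginine deiminases, enzymes that turn arginine in proteins into citrulline. Both groups grew in the same serum medium, the labels call the arrays of a group biological replicates, and a time for the vehicle is not stated separately. The study covers 1 cell line, 1 dose and 1 time.

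An H/ACA snoRNA folds into hairpins followed by short sequence boxes, pairs with ribosomal RNA, and directs the enzyme dyskerin (DKC1) to change a chosen uridine there into pseudouridine. Most human H/ACA snoRNAs have no promoter of their own. They are cut out of introns of a host gene, so their output is tied to transcription and splicing of the host, while the mature RNA is kept stable by its protein partners. Many hosts encode ribosomal proteins or other parts of the translation apparatus, and some hosts are long non-coding RNAs known mainly for the snoRNAs in their introns.

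The values are RMA expression values on the log2 scale, so a difference of 1 is a 2-fold change. The RNAs annotated for the 61 genes are 123 to 236 nucleotides long, and 7 of them are longer than 140. RNA was purified on silica columns, which keep such short molecules poorly, and a probe set inside an intron can read both the mature snoRNA and the unspliced host transcript. Mature snoRNA and precursor therefore cannot be told apart in these values. The intensity distributions were equalised across arrays, so neither cell number nor RNA per cell can be read from them. Mean levels of the members over the 6 arrays ran from 4.78 to 12.68, with 20 members at or below a level of 6.89, the 25th percentile of all genes, and 21 above the median gene, 8.20. The median standard deviation (SD) of a member was 0.14 in DMSO and 0.13 in YW3-56. The line's expected markers VIM, CD44, CAV1, AXL, ANXA1 and MSN had mean levels between 13.15 and 13.70, while ESR1, PGR, GATA3, CDH1 and EPCAM lay between 5.93 and 7.59, and 4 blood and endothelial genes between 5.28 and 6.95. Of these 15 markers, CAV1 and GATA3 fell and none rose. DMSO replicate 1 stood apart from the other arrays, with a limma array weight of 0.33 against 0.65 to 2.94 for the other 5.

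Many H/ACA snoRNAs were lower after YW3-56 and few were higher. At an adjusted p under 0.05 (limma, Benjamini-Hochberg over all 18417 genes), 23 of the 61 members fell, 3 rose and 35 did not pass. Among all genes tested, 11.5% fell and 9.84% rose by the same rule. The sign of the difference was negative in 49 members and in 11432 of all 18417 genes, and the median difference was -0.17 against -0.05 over all genes. All 3 treated arrays lay below all 3 DMSO arrays in 25 members, a pattern found in 21.4% of all genes, and above them in 3 members, against 2862 of the 18417 genes. A fall of at least 1.5-fold was called in 16 members, against 3.0% of all genes, and 4 of these reached 2-fold. Without DMSO replicate 1 the count of falls was 25, and without YW3-56 replicate 3 it was 15. With each gene's own variance in place of limma's shared one, 12 falls and no rise passed.

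**Figure D1:**
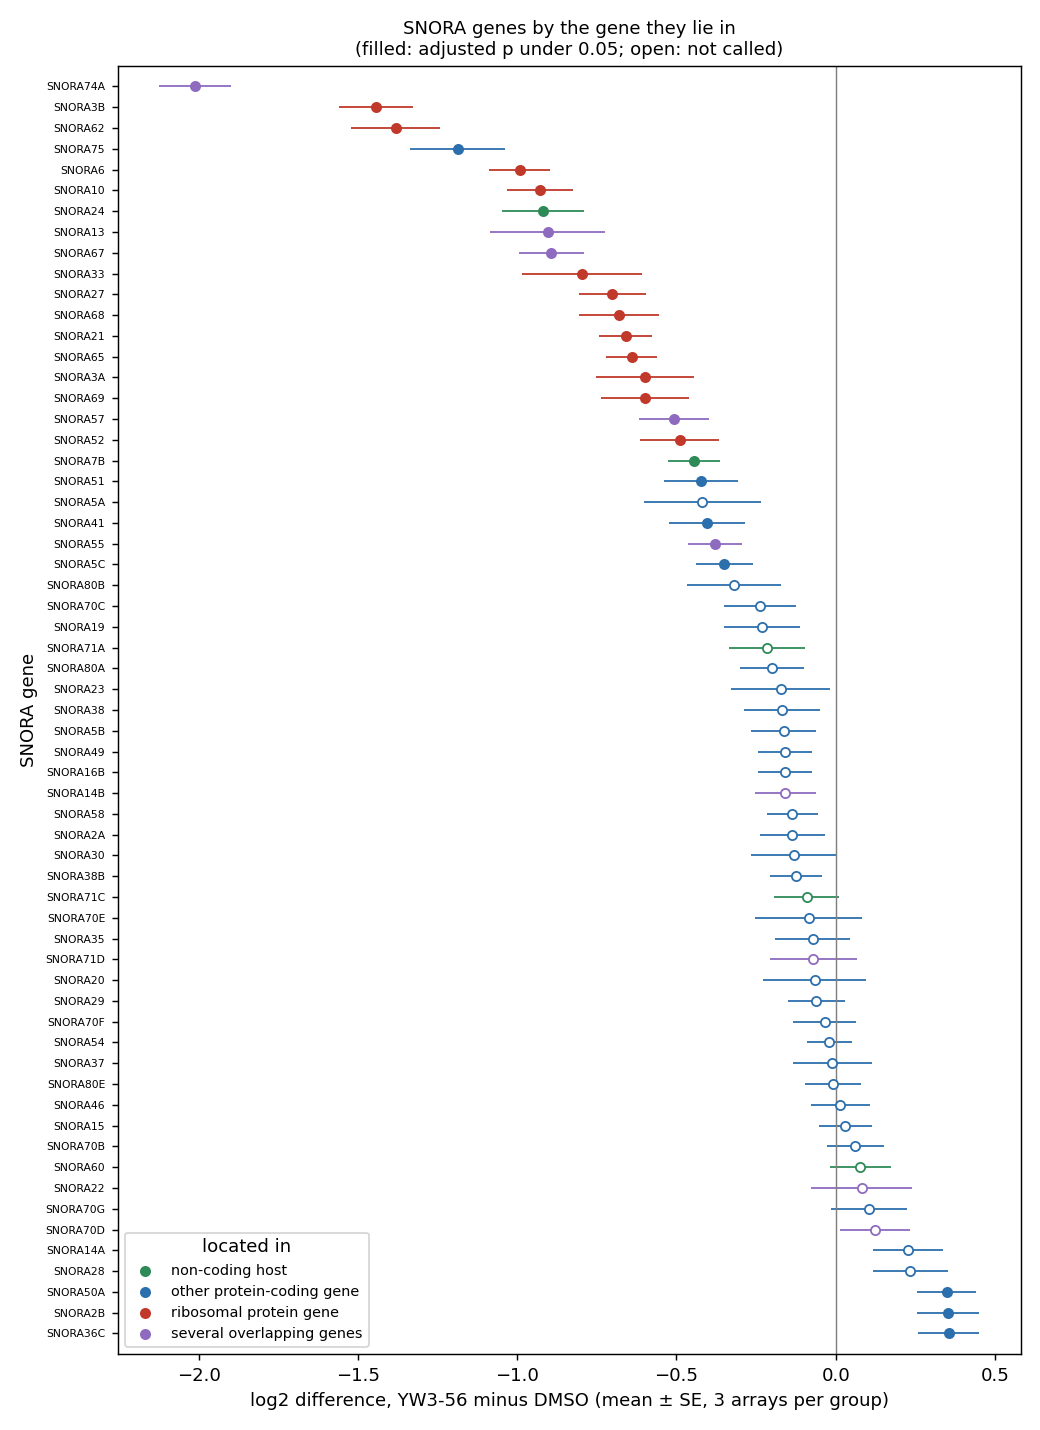
Log2 difference, YW3-56 minus DMSO, with its standard error (horizontal axis, 3 arrays per group) for each of the 61 SNORA genes (vertical axis), coloured by the kind of gene they lie in; filled points passed an adjusted p of 0.05. The 12 members in ribosomal protein genes are all filled and lie between -1.44 and -0.49.

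The falls were arranged by genomic host. A host was defined as the gene whose annotated span holds the snoRNA gene, and 52 members lay in exactly 1 such span. All 12 members inside the 10 ribosomal protein hosts fell, 11 of them by at least 1.5-fold, with a median difference of -0.69 and groups that did not overlap in any of the 12. Of the 49 other members 11 fell, 3 rose and 35 were not called, with a median of -0.14. Within these, 35 members lay in other protein-coding genes, where 4 fell and 3 rose, and 5 in non-coding hosts, where 2 fell. The last 9 lay in several overlapping genes, where 5 fell. Among all genes tested 11.5% fell and 9.84% rose, close to the shares in the 35 members of other protein-coding genes. The difference between host classes was not tested. With each gene's own variance, 7 of the 12 passed. Members in ribosomal protein genes had levels from 4.89 to 11.10, with a median of 8.15, and the 49 others from 4.78 to 12.68, with a median of 7.43.

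The ribosomal protein hosts are known for a distinctive transcription start. Their messenger RNAs typically begin with a cytosine followed by a run of pyrimidines, the terminal oligopyrimidine tract through which translation of ribosomal protein messages is tuned. The windows below show 20 bases before and 10 bases from the annotated start of hosts named in the results (RefSeq, GRCh38.p14, 5′ to 3′ on the transcribed strand). Capitals mark the tract where a C at the start was followed by at least 4 further bases that are C or T, read on the transcribed strand only. The first lines are the ribosomal protein hosts in the table.
RPL27A, host of SNORA3A and SNORA3B, chr11:8682772-8682801, + strand: gagacttggcgaaggccttcCTTTTTCgtc
RPSA, host of SNORA6 and SNORA62, chr3:39406700-39406729, + strand: cgtcatttcctgccgcctgtCTTTTCCgtg
RPL12, host of SNORA65, chr9:127451397-127451426, - strand: cttgtccgcgcgatttccggCCTCTCggct
RPL21, host of SNORA27, chr13:27251538-27251567, + strand: cgccgcggccccgcctctttCCTTTCggcc
RPS12, host of SNORA33, chr6:132814549-132814578, + strand: ggcatgcgtgcggatgaggcCTCTTTCCCT
RPL39, host of SNORA69, chrX:119791621-119791650, - strand: gctcgttcttccgccagcttCCCTCCTCTT
RPLP2, host of SNORA52, chr11:809947-809976, + strand: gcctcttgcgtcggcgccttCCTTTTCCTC
SNHG4, 1 of 3 genes over SNORA74A, chr5:139274081-139274110, + strand: ttcccctcggctcccggctgCCCTTTCCCC
NCL, host of SNORA75, chr2:231464475-231464504, - strand: caggctcagtctttcgcctcagtctcgagc
SNHG8, host of SNORA24, chr4:118278742-118278771, + strand: tgccgaaggcctcggcctttcacattcggg
SNHG17, host of SNORA71A and SNORA71C, chr20:38435319-38435348, - strand: cttccttgtcgtgtggcctcagtccttcgc
Of the 10 ribosomal protein hosts, 7 are in the table of starts and all 7 carried the tract. Over all hosts it was found at 14 of 50 starts, and over all 35116 starts in the table at 1429, or 4.07%. SNHG4 and MATR3 have the same start window and were counted separately. Members with a tract at a host start numbered 15, of which 11 fell, with a median difference of -0.60. Of these 15, 9 are members in ribosomal protein genes already counted above. Among 37 members without it, 8 fell and 2 rose, with a median of -0.13, and for 9 members no host start was in the table. Of the 6 tract members outside ribosomal protein genes, SNORA74A and SNORA57 fell, while SNORA23, SNORA49, SNORA14B and SNORA70F were not called. The median difference of these 6 was -0.17. NCL, SNHG8 and NOP56 had no tract by this rule and their snoRNAs fell. A match is only a description of these letters at the annotated start.

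The members in ribosomal protein genes that fell most were SNORA3B, SNORA62, SNORA6 and SNORA10. SNORA3B, in the gene of the large-subunit protein RPL27A, read 9.79, 9.47 and 9.75 on the DMSO arrays and 8.38, 8.04 and 8.25 on the YW3-56 arrays. Every treated array was more than 1 unit below the lowest DMSO array, and the difference was -1.44 ± 0.12 (SE, n = 3 arrays per group; 2.72-fold lower; limma adjusted p = 0.00023). SNORA62, also known as E2, lies in RPSA, the gene of a small-subunit protein that is also known as a laminin receptor. Its values were 9.13, 8.96 and 8.95 in DMSO and 7.96, 7.50 and 7.43 in YW3-56, a difference of -1.38 ± 0.14 (limma adjusted p = 0.00052). The same host holds SNORA6, which read 8.55, 8.31 and 8.47 in DMSO and 7.58, 7.33 and 7.45 in YW3-56 and fell by 0.99 (SE 0.10; limma adjusted p = 0.00043). Both RPSA-hosted snoRNAs thus had separate groups and falls of 1.99-fold or more. SNORA10 lies in RPS2, a small-subunit protein gene, and read 9.70, 9.72 and 9.87 in DMSO against 8.66, 8.83 and 9.01 in YW3-56 (difference -0.93 ± 0.10; limma adjusted p = 0.00072).

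The other 8 members in ribosomal protein genes fell by 0.49 to 0.80. The largest of these falls was at a dim probe set, SNORA33 in RPS12, with 6.33, 5.68 and 5.85 in DMSO and 5.38, 4.83 and 5.25 in YW3-56 (difference -0.80 ± 0.19; limma adjusted p = 0.019). SNORA27 in RPL21 read 8.23, 8.10 and 8.05 against 7.56, 7.22 and 7.51 (-0.70 ± 0.11). Its groups did not overlap, and neither did those of SNORA21 in RPL23 (-0.66 ± 0.08) and SNORA65 in RPL12 (-0.64 ± 0.08). SNORA3A, the second copy in RPL27A and the third brightest member, read 11.30, 11.48 and 11.44 in DMSO and 10.48, 11.15 and 10.79 in YW3-56 (-0.60 ± 0.16; limma adjusted p = 0.027). Its fall was smaller than that of SNORA3B in the same host, and that contrast was not tested. SNORA69 in RPL39, 1 of the 3 dimmest members, read 5.05, 5.02 and 5.50 against 4.72, 4.45 and 4.60 (-0.60 ± 0.14; limma adjusted p = 0.017). SNORA52 in RPLP2, a gene for a stalk protein of the large subunit, read 9.24, 9.43 and 9.51 against 8.68, 9.13 and 8.90 (-0.49 ± 0.13; limma adjusted p = 0.025). Leaving out single arrays ended the calls of SNORA33, SNORA3A, SNORA69 and SNORA52, with adjusted p of up to 0.062, 0.096, 0.066 and 0.089, and the other 8 stayed called.

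**Figure D2:**
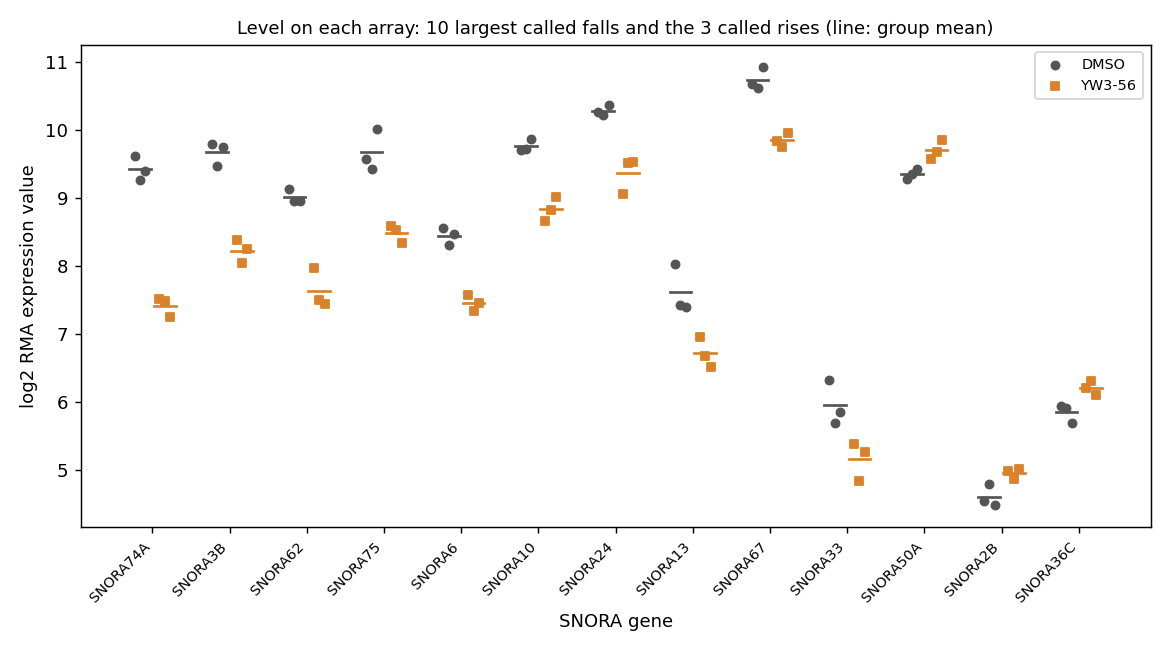
Log2 RMA expression value on each array (vertical axis; points are arrays, short lines are group means of 3) for the 10 members with the largest called falls and the 3 that rose (horizontal axis). In SNORA74A the DMSO arrays lie between 9.26 and 9.61 and the YW3-56 arrays between 7.24 and 7.51, and no member shown has overlapping groups.

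The largest fall among all members was outside the ribosomal protein genes. SNORA74A, known as U19, lies where the annotated spans of SNHG4, MATR3 and an uncharacterised locus overlap. It read 9.61, 9.26 and 9.39 in DMSO and 7.51, 7.48 and 7.24 in YW3-56, a difference of -2.01 ± 0.11 (4.03-fold lower; limma adjusted p = 5.9e-05). SNORA75, known as U23, lies in NCL, the gene of nucleolin, a major nucleolar protein that acts in ribosome assembly. Its values of 9.58, 9.43 and 10.01 in DMSO and 8.59, 8.53 and 8.34 in YW3-56 gave a difference of -1.19 ± 0.15 (limma adjusted p = 0.0012). SNORA24, in the non-coding snoRNA host gene SNHG8, read 10.26, 10.23 and 10.37 against 9.06, 9.51 and 9.53 (-0.92 ± 0.13; limma adjusted p = 0.0019). These 3 members were called whichever single array was left out.

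SNORA67, known as U67, lies in the span shared by EIF4A1, the RNA helicase of the cap-binding complex, and a read-through gene, and was the fifth brightest member. It read 10.67, 10.61 and 10.93 in DMSO and 9.84, 9.75 and 9.95 in YW3-56, with a difference of -0.89 ± 0.10 (limma adjusted p = 0.00083). SNORA13, within EPB41L4A and its antisense gene EPB41L4A-AS1, read 8.02, 7.43 and 7.40 against 6.95, 6.67 and 6.51 (-0.90 ± 0.18; limma adjusted p = 0.0090). The DMSO arrays of SNORA13 spread widely, yet the lowest stayed above the highest treated array. Smaller falls were called for SNORA57 (-0.51 ± 0.11, under CSKMT and LBHD1) and SNORA7B (-0.44 ± 0.08, in the pseudogene RPL32P3). SNORA51 fell by 0.42 in NOP56, which encodes a core protein of the box C/D snoRNA particles, and SNORA41 by 0.40 in EEF1B2, a translation elongation factor gene. SNORA55, under PABPC4 and its antisense gene, fell by 0.38, and SNORA5C in TBRG4 by 0.35. Leaving out single arrays ended the calls of SNORA57, SNORA51, SNORA41, SNORA55 and SNORA5C, with limma adjusted p of up to 0.050, 0.13, 0.17, 0.065 and 0.11. With the replicate number as a block, SNORA51 and SNORA41 were no longer called (limma adjusted p = 0.051 and 0.055), while SNORA5A, at -0.42 and adjusted p = 0.16 without the block, passed at adjusted p = 0.011.

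Only 3 of the 61 members rose, and all 3 by about the same small step of 0.35. SNORA50A, in CNOT1, the scaffold gene of the main cytoplasmic deadenylase complex, read 9.28, 9.35 and 9.42 in DMSO and 9.57, 9.67 and 9.85 in YW3-56 (0.35 ± 0.09; 1.27-fold; limma adjusted p = 0.028). SNORA2B, the dimmest member, lies in KANSL2, a gene of a histone acetyltransferase complex, and read 4.53, 4.78 and 4.48 against 4.98, 4.87 and 5.01 (0.35 ± 0.10; limma adjusted p = 0.035). SNORA36C, in the kinase gene AAK1, read 5.94, 5.91 and 5.69 against 6.20, 6.31 and 6.09 (0.35 ± 0.10; limma adjusted p = 0.033). The groups did not overlap in any of the 3, but leaving out single arrays raised the adjusted p to as much as 0.11, 0.14 and 0.12. SNORA14A, at 0.23 ± 0.11 and adjusted p = 0.20, passed with the replicate block (adjusted p = 0.0495).

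Each member was next set beside its host gene. A host with a probe set of its own single symbol was measured for 43 members, which lie in 36 hosts. The member fell in 10 of these pairs and the host in 14, and both fell in 5. A host with several members enters once per member. Counted once each, 11 of the 36 hosts fell, at a median host level of 10.87. Over all genes 11.5% fell, and 19.5% in the level range of the brightest members. In 5 pairs the snoRNA fell and the host was not called, in 9 the host fell and the snoRNA was not called, and in 18 neither was called. Across the 43 pairs, which share arrays and partly hosts, the 2 differences had a Pearson correlation of 0.32 and a Spearman correlation of 0.48. The change of the snoRNA relative to its host was taken from the difference of the 2 log2 values on each array. It was lower on all treated arrays in 10 pairs, higher on all in 8, and overlapped between groups in 25. Among all 18417 genes, each read singly, 3942 were lower on all treated arrays, 2862 were higher and 11613 overlapped. The share for differences between other pairs of genes was not computed. With 3 arrays against 3, an exact two-sided permutation test of 1 pair cannot give a p below 0.1, so these pairwise differences are given with their SE as a description and without a test.

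In 3 ribosomal protein pairs the brightest probe set of the host read almost the same in both groups while the snoRNA within the gene fell. RPS2 had a mean of 13.26 ± 0.08 in DMSO and 13.24 ± 0.09 in YW3-56 (SD, n = 3; limma adjusted p = 0.93), and SNORA10 fell relative to it by 0.91 (SE 0.12). RPL12 differed by -0.03 ± 0.08 and SNORA65 relative to it by -0.61 ± 0.13, but a dimmer RPL12 probe set differed by -0.37 ± 0.12. RPLP2 differed by 0.00 ± 0.07 and SNORA52 relative to it by -0.49 ± 0.16. In all 3 pairs the 6 array differences split fully by group.

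The other ribosomal protein hosts with their own probe sets were RPL27A and RPL23. At the probe set used, both fell by less than their snoRNAs. RPL27A went from 11.51 ± 0.05 in DMSO to 11.23 ± 0.02 in YW3-56 (SD, n = 3; difference -0.28 ± 0.07; limma adjusted p = 0.023), a call that ended with each array centred on its median (adjusted p = 0.052) and in 5 of the 6 fits that left out an array (adjusted p from 0.051 to 0.097). Relative to it, SNORA3B fell by 1.16 (SE 0.12) with no overlap, while the groups overlapped for SNORA3A (-0.32 ± 0.21). RPL23 differed by -0.42 ± 0.08 (limma adjusted p = 0.0066), and SNORA21 relative to it by -0.24 ± 0.12. The probe sets of a host did not always read alike. RPL27A has 2 more, at levels of 8.94 and 9.32 with differences of -0.48 ± 0.10 and -1.17 ± 0.20. The difference of -1.17 was a larger fall than that of SNORA3A (-0.60). The relative falls above refer only to the brightest RPL27A probe set. Another RPL12 probe set, at a level of 8.73, differed by -0.37 ± 0.12, while the other 3, at 12.98 to 13.10, differed by -0.03 to -0.01. Ribosomal protein genes also have many near-identical pseudogenes, so bright values under these symbols can be shared with copies elsewhere.

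For the hosts without a probe set of their own, only probe sets listing further genes were at hand. The 5 that list RPL21 with its pseudogenes differed by -0.05 to -0.02, and the 2 that list RPL39 with other genes differed by 0.04. A probe set that lists both SNORA33 and RPS12 differed by -0.01 ± 0.08 at a level of 9.39, whereas SNORA33's own probe set fell by 0.80. By contrast, a probe set that lists SNORA64 and RPS2 fell by 1.06 (SE 0.11) at a level of 8.49. Another one, listing H19 and RPS12, differed by -0.18 ± 0.14. None of the probe sets naming RPL21, RPL39 or RPS12 was called. In the annotation used here no probe set lists RPSA. Over all 66 cytosolic ribosomal protein genes measured, 6 fell and none rose (limma, with 10 and 0 at an unadjusted p under 0.05). Their median difference was -0.06 and their median level 12.35. Among all genes tested 11.5% fell, and 19.5% fell in the level range of the brightest members, so 6 of 66 lay below both shares.

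**Figure D3:**
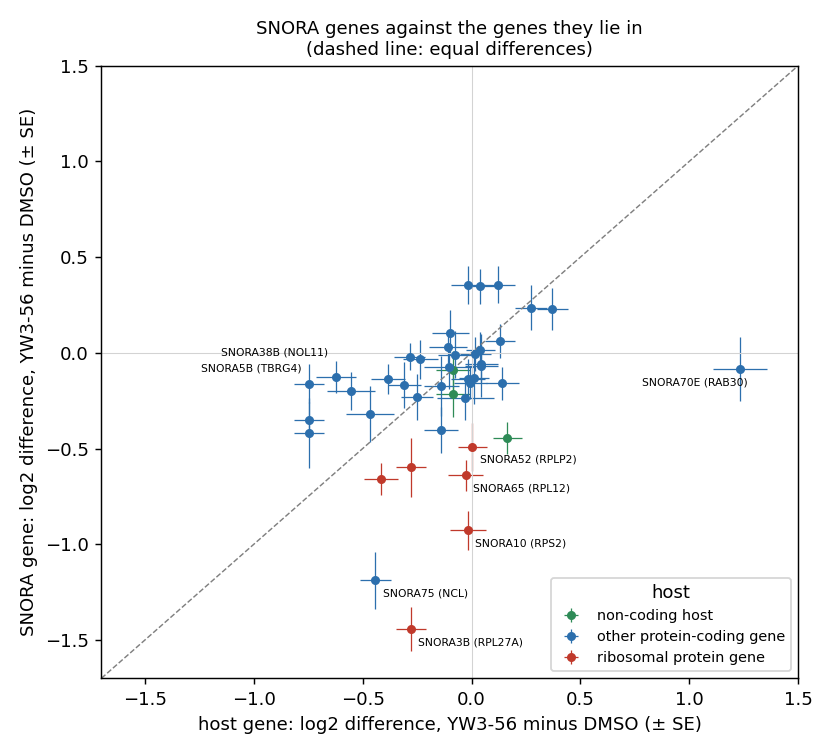
Log2 difference, YW3-56 minus DMSO, of each SNORA gene (vertical axis) against that of its host gene (horizontal axis) for the 43 pairs, with standard errors; the dashed line marks equal differences. SNORA10 and SNORA65 lie far below the line at host differences of -0.02 and -0.03, SNORA5B and SNORA38B lie above it, and SNORA70E lies at -0.08 although RAB30 rose by 1.23. Host values are those of the brightest probe set. A dimmer probe set of RPL12, the host of SNORA65, differed by -0.37 ± 0.12 and is not drawn.

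Some other hosts fell while their snoRNAs differed by less. TBRG4, the gene of a protein that acts on mitochondrial RNA, fell from 10.27 ± 0.03 to 9.53 ± 0.05 (SD, n = 3; difference -0.75 ± 0.07; limma adjusted p = 0.00039). Its 3 snoRNAs differed by less. SNORA5A read 8.23, 7.68 and 7.77 in DMSO and 7.76, 7.16 and 7.51 in YW3-56, with overlapping groups. SNORA5C read 8.39, 8.25 and 8.46 against 8.09, 8.06 and 7.89, and SNORA5B read 7.18, 7.19 and 7.18 against 7.12, 7.14 and 6.80, both without overlap. The differences were -0.42 ± 0.18 for SNORA5A, -0.35 ± 0.09 for SNORA5C and -0.16 ± 0.10 for SNORA5B. Relative to TBRG4, SNORA5B and SNORA5C were higher on all treated arrays, by 0.58 ± 0.12 and 0.40 ± 0.08. NOL11, a gene needed for making ribosomal RNA, fell by 0.62 (SE 0.09; limma adjusted p = 0.0023), and its SNORA38B stood at -0.13 ± 0.08. MRPL3, encoding a mitochondrial ribosomal protein, fell by 0.38 with SNORA58 at -0.14, and NAP1L4, a histone chaperone gene, fell by 0.28 with SNORA54 at -0.02. SNORA58 was dim, at a mean level of 5.82 against 11.09 for MRPL3, where a fall may go undetected. The call of NAP1L4 ended under centring (limma adjusted p = 0.055) and in 4 fits that left out an array (up to 0.086). Relative to their hosts, SNORA38B, SNORA58 and SNORA54 were also higher on all treated arrays, by 0.50, 0.25 and 0.26.

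The reverse case was RAB30, the gene of a Golgi GTPase, which rose from 8.67 ± 0.17 to 9.90 ± 0.20 (SD, n = 3; difference 1.23 ± 0.12; limma adjusted p = 0.00052). Its SNORA70E read 6.77, 6.97 and 7.46 in DMSO and 7.02, 6.82 and 7.10 in YW3-56, with overlapping groups and a difference of -0.08 ± 0.17. The other hosts that rose were POR, by 0.37, and EIF5, by 0.27, with SNORA14A at 0.23 and SNORA28 at 0.24 and neither called. The EIF5 call was lost in 5 of the 6 fits that left out an array (limma adjusted p up to 0.12). NCL fell by 0.44 (SE 0.07; limma adjusted p = 0.0033), and SNORA75 fell relative to it by 0.75 (SE 0.16). RPL32P3 differed by 0.16 ± 0.07 and was not called, and SNORA7B relative to it by -0.61 ± 0.06. The hosts of the 3 members that rose were not called, at 0.04 for CNOT1, -0.02 for KANSL2 and 0.12 for AAK1.

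In some hosts with several members, 1 snoRNA was called and another was not. In CNOT1, SNORA50A rose while SNORA46 differed by 0.02 ± 0.09. In KANSL2, SNORA2B rose while SNORA2A differed by -0.14 ± 0.10. SNORA46, SNORA2A and SNORA2B were dim, at mean levels of 6.63, 5.99 and 4.78, where a change may go undetected. In TCP1, a chaperonin subunit gene whose own difference was 0.04, SNORA20 and SNORA29 differed by -0.07 and -0.06. Differences between snoRNAs of 1 host were not tested.

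The brightest members, SNORA71D and SNORA71C, were copies of SNORA71, and they were not called, nor was SNORA71A, the next brightest after SNORA3A. SNORA71D read 12.57, 12.75 and 12.83 in DMSO and 12.35, 12.86 and 12.73 in YW3-56, a difference of -0.07 ± 0.14. SNORA71C read 11.80, 11.98 and 12.02 against 11.70, 12.01 and 11.82 (-0.09 ± 0.10), and SNORA71A read 10.41, 10.53 and 10.63 against 10.06, 10.46 and 10.40 (-0.22 ± 0.12). The groups overlapped in all 3 copies. They lie within SNHG17, a non-coding snoRNA host gene, whose brighter probe set differed by -0.09 ± 0.08 at a level of 10.89, while its dimmer one, at 9.67, fell by 0.62 (SE 0.10). Because the SNORA71 copies resemble each other, signal may be shared among their probe sets.

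Most other copy families held no calls. None of the 6 measured SNORA70 copies, each in a different gene, passed the test in limma, and none had an unadjusted p under 0.05, with differences from -0.24 to 0.12. SNORA70F, 1 of the 3 dimmest members, read 5.10, 5.16 and 5.44 in DMSO and 5.18, 5.24 and 5.18 in YW3-56. The 3 SNORA80 copies ranged from -0.32 to -0.01 and none was called, although SNORA80A and SNORA80B passed without DMSO replicate 1 (limma adjusted p = 0.046 and 0.013). The 2 copies each of SNORA14 and SNORA38 were not called either. Over all 35 members that did not pass, differences ran from -0.42 in SNORA5A to 0.24 in SNORA28.

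Calls were unevenly spread over levels. Among the 20 dimmest members, at mean levels from 4.78 to 6.89, 3 fell and 2 rose, with a median difference of -0.06. In the 21 of middle level, 6.90 to 8.32, 8 fell, with a median of -0.17. Among the 20 brightest, 8.39 to 12.68, 12 fell and 1 rose, with a median of -0.47. All genes within the same 3 level ranges fell in 2.12%, 6.88% and 19.5% of cases, so the background also grew with level. A member not called at a low level may have changed without being detected here.

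**Figure D4:**
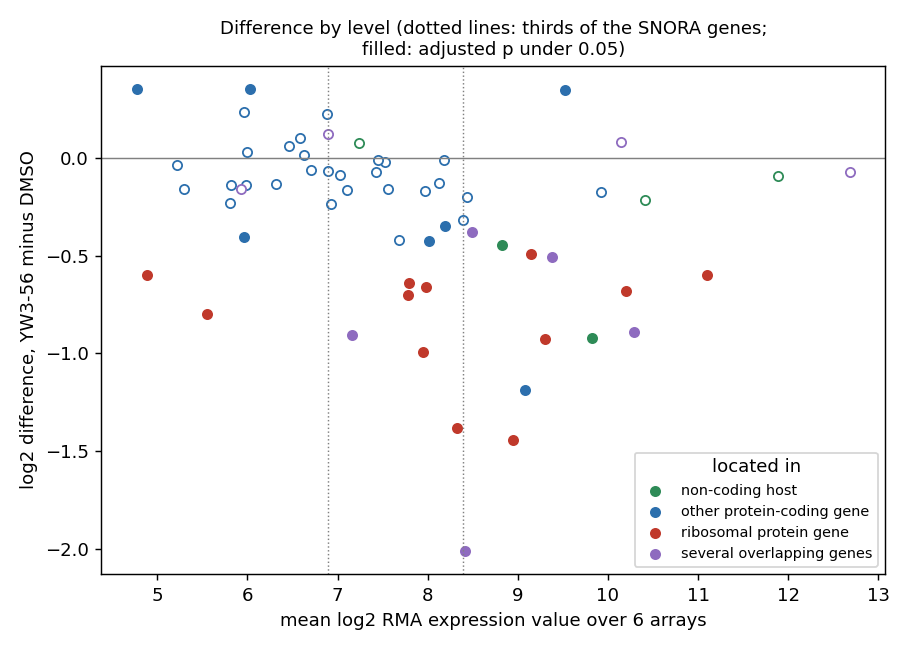
Log2 difference, YW3-56 minus DMSO (vertical axis), against the mean log2 RMA expression value over the 6 arrays (horizontal axis) for the 61 SNORA genes; dotted lines separate the 20 dimmest, 21 middle and 20 brightest members, and filled points passed an adjusted p of 0.05. The SNORA71 copies, at levels of 10.42, 11.89 and 12.68, lie between -0.22 and -0.07, while the members in ribosomal protein genes lie below 0 at all levels.

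Probe sets outside the single-symbol rule were looked at separately. A further 26 probe sets list a SNORA symbol together with other genes, often the host, and 16 of them fell and none rose, with a median difference of -0.70. In that fit over all 33297 probe sets, 6.50% fell. Among the members themselves, SNORA10 has 2 probe sets with identical values on every array, and SNORA15 has 3, of which 2 are identical, with differences of 0.01 to 0.03. Each gene entered the counts of members once.

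Transcripts of the proteins that build and carry H/ACA RNAs fell in part. The transcript of dyskerin, the pseudouridine synthase of the particle, fell most. DKC1 read 10.63, 10.54 and 10.59 in DMSO and 9.84, 9.74 and 9.83 in YW3-56 (-0.78 ± 0.07; 1.72-fold lower; limma adjusted p = 0.00036). SHQ1, which holds newly made dyskerin during assembly, fell by 0.47 (SE 0.08; limma adjusted p = 0.0058). RUVBL2, an ATPase of the assembly machinery, fell by 0.27 (limma adjusted p = 0.022). NOPCHAP1, a chaperone known for box C/D rather than H/ACA assembly, fell by 0.26 (limma adjusted p = 0.027). Both of these calls ended with each array centred on its median. The genes of the other core proteins, NOP10 (-0.29, limma adjusted p = 0.052), GAR1 (-0.20) and NHP2 (-0.15), and of the assembly factor NAF1 (-0.10) were not called. The 11 core and assembly genes listed include NOPCHAP1, and 4 of the 11 fell, NOPCHAP1 among them, and none rose. The sign was negative in all 11, and the groups stood apart downward in 10, with a median of -0.26. The corresponding background over all genes is that given above, 11432 of 18417 negative and 21.4% apart downward, and 19.5% of genes in the level range of the brightest members were called lower.

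Telomerase RNA (TERC) also carries an H/ACA end and the same core proteins. It differed by -0.23 ± 0.08 (limma adjusted p = 0.074). WRAP53, which brings Cajal body RNAs and telomerase RNA to Cajal bodies, fell by 0.26, a call that also ended under centring, and TERT (-0.14) and COIL (-0.06) were not called. Among 7 genes of snoRNA release and 3′ trimming, 3 fell and 2 rose. Among all genes tested 11.5% fell and 9.84% rose. In the level range of the brightest members, 1634 of 8380 genes fell and 1356 rose. XRN2, a nuclear exonuclease, fell by 0.43 (SE 0.07; limma adjusted p = 0.0027), the deadenylase TOE1 by 0.57 (SE 0.08; adjusted p = 0.0016) and the exosome subunit EXOSC10 by 0.29. TENT4B, a polymerase that adds short adenosine tails to nuclear RNA, rose by 0.55 (SE 0.08; limma adjusted p = 0.0024), and ZCCHC8, of the nuclear exosome targeting complex, by 0.33. The deadenylase PARN, known to trim such tails, stood at 0.15 and the lariat debranching enzyme DBR1 at -0.14, both not called.

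Genes of pseudouridine synthases that work without a guide RNA were listed for comparison. Of 12, 5 fell and none rose (limma, with 6 and 0 at an unadjusted p under 0.05), with a median of -0.16. Their median level was 8.90. Over all genes 11.5% fell, and 19.5% fell in the level range of the brightest members. PUS7, which acts on transfer and messenger RNA, fell by 1.05 (SE 0.16; 2.07-fold lower; limma adjusted p = 0.0029) and PUS1 by 0.56 (SE 0.07; adjusted p = 0.0013). RPUSD1, PUS7L and RPUSD2 fell by 0.44, 0.40 and 0.27. The calls of EXOSC10, ZCCHC8, WRAP53, RUVBL2, NOPCHAP1, PUS7L and RPUSD2 were lost in at least 1 fit that left out an array.

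Box C/D snoRNAs, which guide methylation of ribosomal RNA and are likewise made mostly from introns, were set beside the members. Of 115 SNORD genes, 54 fell and 1 rose, with a median difference of -0.32. Inside ribosomal protein genes 18 of 19 SNORD genes fell, with a median of -0.87, beside 12 of 12 SNORA genes with a median of -0.69. In other protein-coding genes 15 of 25 SNORD genes fell and 1 rose, against 4 of 35 SNORA genes that fell. Among all genes tested 11.5% fell. Of the 16 SCARNA genes, whose RNAs work in Cajal bodies and in part belong to the H/ACA class, none was called by limma, with 1 lower and 1 higher at an unadjusted p under 0.05 and a median of -0.04. These groups share the arrays and in part the hosts, and differences between them were not tested.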

How the data were processed

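The deposited table holds log2 expression values of 6 Affymetrix arrays for 33297 probe sets, made by the authors with RMA and the affy package, per the submitters' processing notes (their versions: not given in the sources used here). This method equalises intensity distributions, so a change common to all transcripts would not be seen. Arrays have no read depth, and their number limits the precision. The platform annotation, which can be old, gave 1 symbol for 19460 probe sets, several for 1754 and none for 12083.

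YW3-56 was compared with DMSO over 18417 genes with limma 3.58.1 in R 4.3.3 (lmFit and eBayes, group as the only term, two-sided, Benjamini-Hochberg over all genes, adjusted p under 0.05), after the code was tested on simulated data. The fit had 4 residual and 4.17 prior degrees of freedom. Values are differences of group means with standard errors (SE). Replicate numbers were checked as a pairing: deviations from group means correlated at 0.54, 0.37 and 0.10 between arrays of the same number, the last only just above 0.1, so blocked values are given where they change a call.

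Hosts come from annotated gene spans in RefSeq GRCh38.p14, used for names and neighbourhood only. That table has no strand, so the planned restriction to the host's own strand could not be applied, and members inside several spans form their own class. The values of 1 member, named with its host, and 1 host start are not reported here, although counts include them. Named with array values were the 10 largest called falls, all called rises, and the 5 brightest and 3 dimmest members; hosts with several members, their snoRNAs and the called genes of the pathway lists were named mostly with differences only; members in ribosomal protein genes beyond these, the start tract, the hosts' further probe sets and the count of ribosomal protein members were chosen after their values were seen. Members and lists were chosen with earlier results of these data known. Alternatives were a replicate block, another quantile normalization, centring, 2 filters on dim genes, other uses of probe sets, another prior, array weights, a per-gene test, a 1.5-fold minimum and leaving out each array.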

Additional observations from a re-analysis of the deposited data

How the results depend on the processing

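No alternative reversed the sign of a called member, and 12 of the 26 called members, all of them lower, passed an adjusted p of 0.05 in every refit that tested them. Of these 12, SNORA6, SNORA27, SNORA21 and SNORA65 were not tested above the median level and SNORA7B changed by less than 1.5-fold. The count of 23 falls was 22 with the replicate block, 13 of 21 members when only genes above the median level were tested, 35 of 90 when every probe set was tested as such, with identical probe sets of a gene counted separately, and 12 when each gene kept its own variance; it ran from 15 to 25 when single arrays were left out, with 15 without YW3-56 replicate 3. The count of 3 rises was 4 with the replicate block, 1 above the median level, 1 above the 25th percentile of level, 0 over every probe set, 0 with each gene's own variance, 0 with a 1.5-fold change required, and 0 to 3 without single arrays. The 12 falls in ribosomal protein genes were 12 with the replicate block, 6 of 6 above the median level, 7 with each gene's own variance, and 8 to 12 without single arrays. Tests with each gene's own variance rest on 4 residual degrees of freedom, and the filters removed members from the count. Of the 23 lower members, 14 stayed called whichever array was left out, 8 of them in ribosomal protein genes. Over all genes the replicate block moved the falls from 2121 to 2661. Array weights used limma's gene-by-gene method, chosen after the default did not converge. Signal near background limits what can be said of the dim members.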
